A study of Mus musculus with 6 samples.

Results

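The transcription factors that pattern the limb and the body regions were examined in cultures of mouse osteocytes, the cells embedded in bone matrix. Members were the protein-coding genes of the deposited table whose symbol is one of 15 stems, *Tbx*, *Lhx*, *Pitx*, *Msx*, *Dlx*, *Prrx*, *Meis*, *Pbx*, *Irx*, *Alx*, *Shox*, *Pax*, *Emx*, *En* and the stem of *Six2*, followed only by a number. The rule used names and no measured value, and it gave 71 genes of the 56748 listed, of which 21970 are protein-coding. The *Hox* genes were not part of the set. RNA was sequenced from 3 cultures of WT C57BL/6J mice and from 3 cultures labelled cKO, from mice with floxed *Gsdmd* alleles (*Gsdmd* fl/fl) and the DMP1-Cre transgene. *Gsdmd* encodes gasdermin D, which forms membrane pores after inflammasome activation. In the cKO mice the *Dmp1* promoter drives the recombinase, so that deletion is directed to cells that have used this promoter, osteocytes and late osteoblasts among them. The methods describe isolation from the long bones of the limbs of 7-week-old C57BL/6 mice and 7 days of culture. The age of the cKO donors is not given there, and neither the limb nor the sex of any donor is given. LPS (10 ng/mL, 3 h) and then aluminum hydroxide (20 µg/mL, 3 h), which activates the inflammasome, were given to all 6 cultures. No unstimulated culture was analysed here, so that every comparison is one of genotype under stimulation. The records do not say that the 3 cultures of a genotype came from separate animals, and the p-values then measure only the spread between these cultures.

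The members belong to the T-box, homeobox and paired-box families, whose proteins bind DNA and give embryonic cells their position along the limb, the trunk, the face and the nervous system. *Tbx5* is used in the forelimb, *Pitx1* and *Tbx4* in the hindlimb, and the *Prrx*, *Shox*, *Msx* and *Dlx* genes in the mesenchyme that forms bone and cartilage. Connective tissue and skeletal cells of the adult keep part of this code after development, and cells taken from different sites of the body differ in it.

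Promoters are shown for 4 of the 10 members that passed both limits of the test below, so that the letters before the start of genes that moved in opposite directions can be read side by side. *En1* and *Pax9* were higher and *Meis2* and *Irx2* lower in the libraries labelled cKO. RefSeq promoter sequences on GRCm38.p6 were matched for 48 of the 71 members, and no promoter is printed for the other 6 called members, *Tbx5*, *Pax8*, *Lhx6*, *Pax3*, *Alx4* and *Dlx6*. Each line gives the 250 bases before the start, 5′ to 3′ on the strand of the gene, and capitals mark matches on either strand to TAATTA, the core letters of many homeodomain sites, AGGTGT, the core of a T-box site, or TGACAG, the site of MEIS and related proteins.
*En1*, chr1:120602237-120602486, plus strand: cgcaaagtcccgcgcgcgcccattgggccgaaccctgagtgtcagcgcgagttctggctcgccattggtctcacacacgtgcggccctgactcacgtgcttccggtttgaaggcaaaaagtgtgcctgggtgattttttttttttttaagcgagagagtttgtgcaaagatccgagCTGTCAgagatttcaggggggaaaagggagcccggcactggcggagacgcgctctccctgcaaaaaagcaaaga
*Pax9*, chr12:56695221-56695470, plus strand: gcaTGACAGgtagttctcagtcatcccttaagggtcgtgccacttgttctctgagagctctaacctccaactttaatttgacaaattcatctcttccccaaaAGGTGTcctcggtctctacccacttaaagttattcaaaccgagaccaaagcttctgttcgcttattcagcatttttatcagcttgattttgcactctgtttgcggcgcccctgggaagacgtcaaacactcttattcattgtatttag
*Meis2*, chr2:116064620-116064869, minus strand: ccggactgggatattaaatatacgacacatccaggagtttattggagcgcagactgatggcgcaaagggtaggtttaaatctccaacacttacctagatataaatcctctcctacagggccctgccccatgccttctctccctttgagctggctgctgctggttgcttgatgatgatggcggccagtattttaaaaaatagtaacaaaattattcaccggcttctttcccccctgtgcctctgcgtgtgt
*Irx2*, chr13:72628570-72628819, plus strand: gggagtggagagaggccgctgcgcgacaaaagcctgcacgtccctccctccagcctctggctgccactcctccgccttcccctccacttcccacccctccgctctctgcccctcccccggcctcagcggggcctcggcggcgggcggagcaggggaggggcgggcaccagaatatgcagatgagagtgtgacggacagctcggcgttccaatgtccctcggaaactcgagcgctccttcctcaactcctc
The *En1* stretch held 1 match to the MEIS site on the opposite strand. The *Pax9* stretch held 1 match to the MEIS site and 1 to the T-box core, and the *Meis2* and *Irx2* stretches held none of the 3 motifs. Over the 32851 promoters of the table, TAATTA was present in 4.84%, AGGTGT in 11.8% and TGACAG in 15.9%. Of the 59 promoters of members, 4, 2 and 9 held them, in the same order. The motifs do not overlap each other in these stretches, and a match is a description of letters and not of a bound site. The promoters of members had more CG dinucleotides than the table as a whole, with a median of 15 against 6 in 250 bases. *En1* and *Irx2* had 19 each and *Pax9* and *Meis2* 7 each.

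Library totals ranged from 39566835 to 49734046 counts. *Gsdmd* itself was higher in the libraries labelled cKO, with 885, 937 and 1045 counts against 609, 699 and 549 in WT. The label names a deletion of this gene, but counts per gene do not show whether its floxed exons were read. The deletion was therefore not tested here, and each direction below is that of the label. *Xist*, the RNA of X inactivation, had 44817 to 51216 counts in the libraries labelled cKO and 0 to 4 in WT, and the Y-linked *Ddx3y* had 0 against 4033 to 5455, so that sex and genotype cannot be told apart. Of 6 osteocyte markers 5 were too low to be tested. *Sost* was at 0 in every library, *Dmp1* at 0 to 6 counts, *Mepe* at 0 to 2 and *Phex* at 2 to 22, and *Fgf23* had 14, 34 and 8 counts in WT and 6, 0 and 0 in the libraries labelled cKO. *Pdpn* had 7743 to 11932 counts. The summed level of the 10 macrophage markers was 190 to 226 CPM (each library brought to the same total after TMM scaling) in WT and 1567 to 1666 CPM in the libraries labelled cKO, with 9 of 9 tested markers called higher. The 4 smooth muscle and pericyte markers, all called lower, summed to 719 to 868 CPM in WT and 349 to 402 CPM in the other genotype. The part of these differences in the results below was not tested. In bulk samples fewer cells of a type and less RNA per cell cannot be told apart.

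Of the 71 members, 45 had enough counts to be tested and 26 had not. A gene was called when its p-value from edgeR's quasi-likelihood test, adjusted by Benjamini-Hochberg over the 17146 tested genes, lay below 0.05 with a log2 fold change of 1 or more in either direction. By these limits 4 tested members (8.89%) were called higher in the libraries labelled cKO, beside 6.56% of all tested genes, and 6 (13.3%) were called lower, beside 4.64%. The 4 were *Tbx5*, *Pax8*, *En1* and *Pax9*, and the 6 were *Lhx6*, *Irx2*, *Pax3*, *Alx4*, *Dlx6* and *Meis2*. Without a fold limit 13 members passed as higher (28.9%, beside 20.1% of all genes) and 17 as lower (37.8%, beside 19.2%), and 15 did not pass. The libraries of the genotypes did not overlap in CPM for 33 of the 45 (73.3%), beside 49.2% of all tested genes. The median log2 fold change of the tested members was −0.14, and that of all tested genes 0.0077. When the libraries were scaled on 10 mesenchymal genes in place of TMM, 7 members were called higher and 5 lower, and over all genes 1453 were called higher and 626 lower in place of 1124 and 796. Those 10 genes did not move together, with log2 fold changes under TMM from −0.72 (*Fn1*) to 0.47 (*Col6a2*). The mesenchymal scaling moved the median of all genes to 0.20 and that of the members to 0.051. With it 15 members passed as higher and 12 as lower, with *Irx5* and *Meis3* added to the higher and *Tbx3*, *Irx1*, *Msx1* and *Meis1* among those that were lower and no longer passed.

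**Figure D1:**
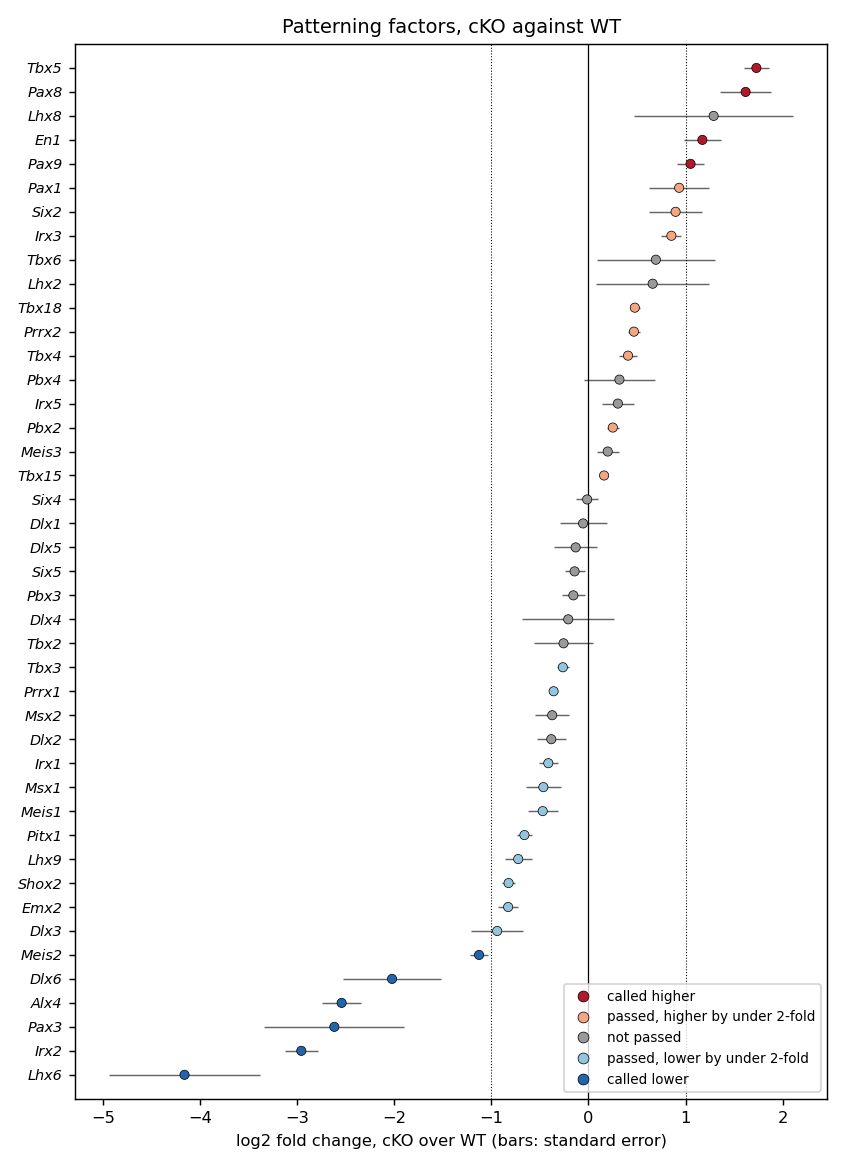
Log2 fold change, cKO over WT, of 43 of the 45 tested patterning factors, 1 line per gene, with bars for the standard error and dotted lines at −1 and 1. The called members range from −4.16 (*Lhx6*) to 1.73 (*Tbx5*), and *Lhx8*, beyond 1 with a long bar, did not pass.

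The members just inside the fold limit were *Pax9* at 1.05 and *Meis2* at −1.13, and those just outside were *Pax1* at 0.93 and *Dlx3* at −0.94. Summed over all members, the level was 1545 to 1569 CPM in WT and 1388 to 1422 CPM in the libraries labelled cKO.

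The genes of limb identity moved in different directions. *Tbx5* (chr5:119970733-120023284), the forelimb T-box gene, had 163, 189 and 129 counts in WT and 510, 466 and 541 counts in the libraries labelled cKO. Every one of the latter lay above every WT library. Its level rose from 3.58 ± 0.245 CPM to 11.9 ± 0.201 CPM (SD, n = 3 each), a log2 fold change of 1.73 (SE 0.126, adjusted p = 3.77e-09, edgeR), the largest increase among the called members. *Tbx4* (chr11:85777248-85806923), its hindlimb counterpart, had 614, 680 and 613 counts in WT and 758, 813 and 850 counts in the other genotype. The groups did not overlap, and *Tbx4* rose by less, with a log2 fold change of 0.41 (SE 0.0919, adjusted p = 0.00168, edgeR). *Pitx1* (chr13:55972864-55984005), a homeobox gene that specifies the hindlimb, had 2294, 2161 and 2000 counts in WT and 1341, 1295 and 1272 counts in the libraries labelled cKO. It fell, again without overlap, with a log2 fold change of −0.66 (SE 0.0754, adjusted p = 1.39e-06, edgeR).

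Both hindlimb genes stayed above *Tbx5* per length in every library. The log2 ratio of *Tbx5* to *Tbx4*, in counts per kb of gene length with a pseudocount of 0.5, was −2.36, −2.29 and −2.69 in WT and −1.03, −1.26 and −1.11 in the libraries labelled cKO. The means differed by 1.31 on the log2 scale. The log2 ratio of *Tbx5* to *Pitx1* was −4.61, −4.31 and −4.75 in WT and −2.21, −2.28 and −2.04 in the libraries labelled cKO, a difference of 2.38. The groups of both ratios were apart, and the two-sided exact permutation test gave p = 0.10 for each, the smallest value that 3 against 3 libraries allow. The limb from which the bones of each culture came is not given, so that its share in these ratios was not tested.

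**Figure D2:**
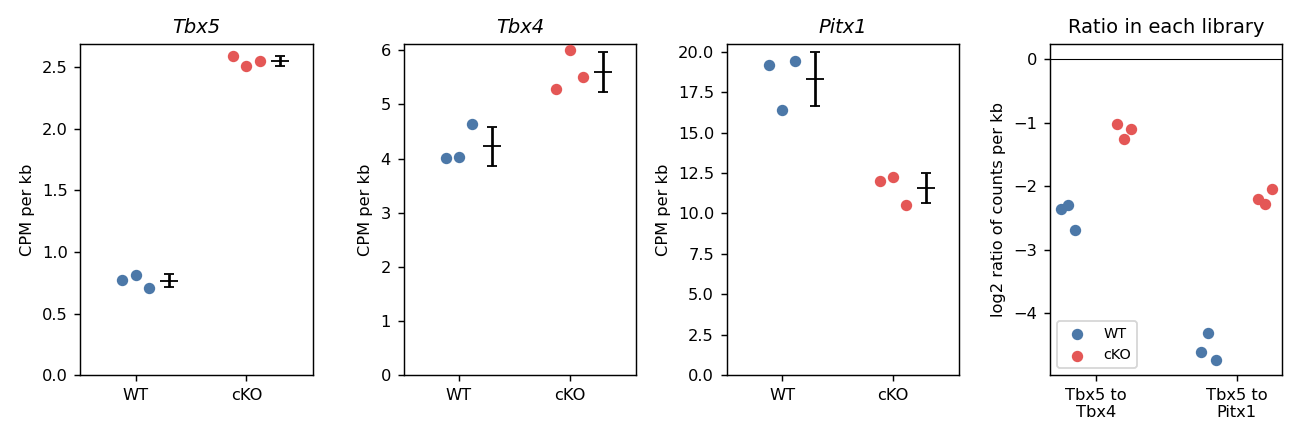
Level of *Tbx5*, *Tbx4* and *Pitx1* in each library in CPM per kb of gene length, with the mean and SD (n = 3) in black, and at the right the log2 ratios of *Tbx5* to *Tbx4* and to *Pitx1* in each library. *Tbx5* and *Tbx4* sit higher and *Pitx1* lower in the libraries labelled cKO, and all ratios lie below 0.

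The other T-box genes included some of the most abundant members. *Tbx15*, which acts in the skeleton of the limb and in the skin, had 162 ± 3.54 CPM in WT and 181 ± 5.82 CPM in the libraries labelled cKO, a small rise with a log2 fold change of 0.16 (adjusted p = 0.00567, edgeR). *Tbx18*, a gene of somites, ureter and heart mesenchyme, rose with a log2 fold change of 0.48 (78.4 ± 4.30 to 109 ± 2.41 CPM, adjusted p = 5.08e-07, edgeR). *Tbx3*, which acts in posterior limb mesenchyme and mammary gland, fell with a log2 fold change of −0.26 (45.5 ± 1.80 to 37.9 ± 2.82 CPM, adjusted p = 0.00301, edgeR). Its neighbour on chromosome 5 is *Tbx5*, 147944 bases away, which moved the other way. In level per length *Tbx3* exceeded *Tbx5* by 8.15 to 9.56 times in WT, against 2.16 to 2.40 times in the libraries labelled cKO, a pair chosen after its values were seen. *Tbx2* (log2 fold change −0.26, adjusted p = 0.557) and *Tbx6*, a gene of the paraxial mesoderm (0.69, adjusted p = 0.406), did not pass in edgeR's test, with at most 70 counts in any library.

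The *Prrx* genes are homeobox genes of mesenchyme. *Prrx1* (chr1:163072688-163141279), which marks limb bud mesenchyme and skeletal progenitors, had 31134, 33858 and 26342 counts in WT and 23107, 20551 and 24302 counts in the libraries labelled cKO. The groups did not overlap, and its log2 fold change was −0.36 (684 ± 6.73 to 533 ± 16.2 CPM, SE 0.0359, adjusted p = 2.65e-07, edgeR). Its paralog *Prrx2* (chr2:30724984-30771263) had 3146, 3340 and 2646 counts in WT and 4057, 4043 and 3913 counts in the other genotype. *Prrx2* rose, also without overlap, with a log2 fold change of 0.47 (68.4 ± 1.32 to 94.7 ± 7.90 CPM, SE 0.0576, adjusted p = 3.34e-06, edgeR). The paralogs thus moved apart in direction. Per kb of gene length *Prrx1* was 1.75 to 1.80 times *Prrx2* in WT, against 0.901 to 1.10 times in the libraries labelled cKO. This pair, and the pairs *Dlx5* with *Dlx6* and *Irx1* with *Irx2* below, were chosen after their values were seen, without a test.

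In WT the order of levels per length was led by *Prrx1* with 61.8 ± 0.609 CPM per kb, *Tbx15* with 43.2 ± 0.946 and *Prrx2* with 34.9 ± 0.672, and the libraries of these 3 did not overlap. *Pitx1*, *Tbx18* and *Shox2* followed at 18.3 ± 1.68, 16.6 ± 0.912 and 16.3 ± 0.767 CPM per kb, with overlapping ranges. In the libraries labelled cKO the leading 3 could not be ordered, with 48.3 ± 4.03 CPM per kb for *Prrx2*, 48.2 ± 1.6 for *Tbx15* and 48.2 ± 1.46 for *Prrx1*. Together they held 50.1% of the summed level per length of the tested members in WT and 52.6% in the libraries labelled cKO. *Tbx18* came next there at 23.1 ± 0.510 CPM per kb, above *Pitx1* at 11.6 ± 0.925 and *Shox2* at 9.21 ± 0.626. At the low end, 8 tested members in WT and 7 in the libraries labelled cKO had a mean under 1 CPM.

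**Figure D3:**
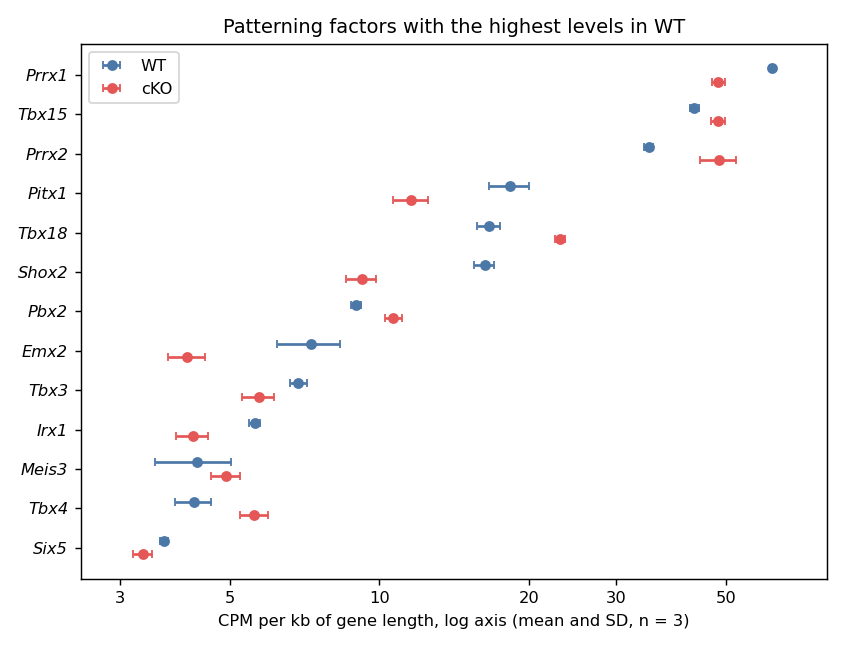
Mean level and SD (n = 3) of 13 of the 15 patterning factors with the highest WT level, in CPM per kb of gene length on a log axis, for WT and the libraries labelled cKO. *Prrx1*, *Tbx15* and *Prrx2* are separate in WT, from 61.8 down to 34.9, and coincide near 48.2 in the libraries labelled cKO.

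*Shox2* (chr3:66879060-66889104), needed for the proximal limb skeleton, had 2549, 2663 and 2002 counts in WT and 1286, 1129 and 1478 counts in the libraries labelled cKO. Every library of the latter was below every WT library, with a log2 fold change of −0.82 (53.9 ± 2.54 to 30.5 ± 2.07 CPM, SE 0.0639, adjusted p = 9.13e-09, edgeR). The protein-coding gene *Rsrc1* overlaps *Shox2* on the opposite strand with 1890 to 2275 counts and a log2 fold change of −0.09. *Emx2*, a homeobox gene of the forebrain, the urogenital system and the shoulder blade, fell with a log2 fold change of −0.83 (21.8 ± 3.15 to 12.3 ± 1.04 CPM, adjusted p = 5.66e-06, edgeR). The antisense gene *Emx2os*, which overlaps it, had the same log2 fold change of −0.83, and the strand setting of the counting is not given in the sources used here, so that reads of the 2 genes may not be separate.

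*Alx4* (chr2:93472729-93511684), an aristaless-related gene of anterior limb and craniofacial mesenchyme, had 292, 295 and 318 counts in WT and 48, 43 and 59 counts in the libraries labelled cKO. No library of either group came near the other group. The level fell from 6.87 ± 1.17 CPM to 1.17 ± 0.112 CPM, a log2 fold change of −2.54 (SE 0.200, adjusted p = 1.06e-08, edgeR). *Ext2*, which encodes an enzyme of heparan sulfate synthesis, overlaps *Alx4* on the opposite strand with 6088 to 9895 counts and a log2 fold change of −0.40. *Alx1* had at most 6 counts in any library and was not tested.

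Of the *Msx* and *Dlx* genes, which act in limb mesenchyme, the facial skeleton and osteoblasts, 1 was called. *Dlx6* (chr6:6863334-6868568) had 32, 38 and 41 counts in WT and 4, 12 and 10 counts in the libraries labelled cKO. The groups were apart, with a log2 fold change of −2.02 (SE 0.509, adjusted p = 0.00394, edgeR), and the antisense gene *Dlx6os1* overlaps *Dlx6* with 0 to 26 counts. *Dlx5*, which lies 9237 bases from *Dlx6* and promotes osteoblast differentiation, had 117, 166 and 92 counts in WT and 100, 121 and 100 counts in the libraries labelled cKO. These overlapped, and *Dlx5* did not pass (log2 fold change −0.13, SE 0.224, adjusted p = 0.694, edgeR). Per length *Dlx5* was 2.35 to 4.58 times *Dlx6* in WT, against 10.5 to 26.2 times in the libraries labelled cKO.

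*Dlx3*, a gene of osteoblasts, teeth and hair, was just outside the fold limit and fell with a log2 fold change of −0.94 (2.74 ± 0.404 to 1.42 ± 0.415 CPM, adjusted p = 0.0092, edgeR). *Dlx2* came close to the limit on p (log2 fold change −0.38, adjusted p = 0.0505, edgeR) and its groups did not overlap, and *Dlx1* (−0.06, adjusted p = 0.885) and *Dlx4* (−0.21, adjusted p = 0.775) did not pass. *Msx1*, a target of BMP signalling in mesenchyme, had 177, 198 and 165 counts in WT and 121, 127 and 125 counts in the libraries labelled cKO. The groups were apart, but the test was passed only narrowly. Its log2 fold change was −0.46 (SE 0.179, adjusted p = 0.049, edgeR), and it no longer passed in 12 of 16 alternative analyses, among them each of the 6 that left out a library. *Msx2*, which acts with *Msx1* in the skull and in osteoblasts, had 246, 236 and 223 counts in WT and 190, 126 and 209 counts in the libraries labelled cKO, and did not pass (log2 fold change −0.37, SE 0.177, adjusted p = 0.110, edgeR).

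The TALE homeobox genes encode co-factors of Hox proteins, with MEIS proteins bound to PBX partners. *Meis2* (chr2:115693545-115896320), which marks the proximal limb, had 1185, 1377 and 1189 counts in WT and 513, 576 and 551 counts in the libraries labelled cKO. It fell, with no overlap and a log2 fold change of −1.13 (28.2 ± 2.19 to 12.9 ± 1.34 CPM, SE 0.0915, adjusted p = 1.66e-08, edgeR). With scaling on the mesenchymal genes its log2 fold change was −0.93, outside the fold limit. *Meis1* had 297, 314 and 216 counts in WT and 208, 178 and 179 counts in the libraries labelled cKO. It fell with a log2 fold change of −0.47 (SE 0.154, adjusted p = 0.022, edgeR) and no longer passed in 5 of 16 alternatives, the mesenchymal scaling and those without WT replicate 1, WT replicate 2, cKO replicate 2 or cKO replicate 3. *Meis3* did not pass (0.20, adjusted p = 0.190), but rose with the mesenchymal scaling (0.40, adjusted p = 0.00709).

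Of the PBX genes, *Pbx2* rose with a log2 fold change of 0.25 (adjusted p = 0.00294, edgeR), and the gene *Gpsm3*, which overlaps it on the same strand with 112 to 523 counts, had a log2 fold change of 1.73. *Pbx3* (−0.16, adjusted p = 0.319) and *Pbx4* (0.32, adjusted p = 0.538) did not pass. All 4 TALE partners outside the rule passed, with *Pknox1* (−0.31), *Pknox2* (−0.82) and *Tgif2* (−0.76) lower and the repressor *Tgif1* (0.25) higher, but *Pknox1* did not pass with the mesenchymal scaling.

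Of the Iroquois genes, which pattern limb, heart and nervous system and lie in 2 clusters, the tested genes of 1 cluster fell and those of the other did not, although *Irx1* did not pass with the mesenchymal scaling (−0.22, adjusted p = 0.0858, edgeR). *Irx2* (chr13:72776939-72782317) had 441, 456 and 345 counts in WT and 44, 50 and 58 counts in the libraries labelled cKO. The gap between the groups was wide, with 9.29 ± 0.463 against 1.19 ± 0.128 CPM, a log2 fold change of −2.96 (SE 0.168, adjusted p = 1.31e-10, edgeR). Its cluster neighbour *Irx1*, 665097 bases away, fell by less, from 14.7 ± 0.359 to 11.0 ± 0.837 CPM, a log2 fold change of −0.41 (adjusted p = 0.00229, edgeR). *Irx1* was 1.88 to 2.12 times *Irx2* per length in WT, against 10.2 to 14.2 times in the libraries labelled cKO. In the cluster on chromosome 8, *Irx3* rose from 8.24 ± 0.311 to 14.9 ± 1.18 CPM, a log2 fold change of 0.85 (adjusted p = 2.9e-06, edgeR), and the overlapping antisense gene *Irx3os*, with 16 to 60 counts, had a log2 fold change of 0.90. *Irx5* did not pass (0.30, adjusted p = 0.171, edgeR), and *Irx4* and *Irx6* were at 0 in every library.

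*Six2* and its relatives, the sine oculis homeobox genes, act with EYA co-activators and DACH co-factors in muscle, kidney and connective tissue. *Six2* rose from 1.26 ± 0.0938 to 2.34 ± 0.583 CPM, a log2 fold change of 0.90 (adjusted p = 0.0136, edgeR). *Six4* and *Six5* did not pass (log2 fold changes −0.01 and −0.14, adjusted p = 0.941 and 0.305, edgeR). Of the 6 partners, 3 passed as higher. These were *Eya2*, which was called (15.8 ± 2.21 to 32.9 ± 2.99 CPM, log2 fold change 1.06, adjusted p = 8.78e-08, edgeR), *Eya1* (0.70) and *Eya4* (0.66). *Dach2* was called lower (1.51 ± 0.464 to 0.315 ± 0.0592 CPM, log2 fold change −2.25, adjusted p = 0.00022, edgeR), and *Eya3* and *Dach1* did not pass.

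The called *Pax* genes did not share a direction. *Pax9* (chr12:56738552-56759607), a gene of the vertebral precursors, teeth and pharyngeal pouches, had 182, 215 and 136 counts in WT and 360, 330 and 356 counts in the libraries labelled cKO. The groups were apart, with a log2 fold change of 1.05 (3.96 ± 0.420 to 8.23 ± 0.364 CPM, SE 0.143, adjusted p = 1.05e-05, edgeR) that was 0.97, under the limit, without WT replicate 3. Its paralog *Pax1*, which acts with it in the sclerotome, passed under the fold limit (1.04 ± 0.326 to 1.98 ± 0.242 CPM, log2 fold change 0.93, adjusted p = 0.0221, edgeR). *Nkx3-2*, a target of both in the sclerotome, was called higher, with 59, 136 and 61 counts in WT and 185, 170 and 198 counts in the libraries labelled cKO (log2 fold change 1.20, adjusted p = 0.000699, edgeR). Of the 7 tested related T-box and homeobox genes outside the rule it alone passed, and with the mesenchymal scaling 4 passed as higher. Most tested cartilage markers moved in the same direction as *Pax9*, *Pax1* and *Nkx3-2*. Of 8 chondrocyte markers 6 were tested and 4 were called higher, *Acan*, *Comp*, *Matn1* and *Col9a1*, *Sox9* rose by 0.24, and *Col2a1* fell by 0.84 on the log2 scale. The 8 markers summed to 1956 to 2168 CPM in WT and 2920 to 3108 CPM in the libraries labelled cKO. The latter sum was mostly *Comp*, which rose from 567 ± 26.4 to 2116 ± 75.1 CPM. *Col2a1* went from 1427 ± 77.6 to 797 ± 47.5 CPM, and *Col9a1* and *Snorc* were at 0 in every WT library. The part of these markers in the *Pax* values was not tested.

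*Pax8* (chr2:24310572-24365611), a gene of thyroid and kidney, had 35, 61 and 57 counts in WT and 133, 132 and 189 counts in the libraries labelled cKO. The groups did not overlap, and the log2 fold change was 1.62 (1.16 ± 0.351 to 3.54 ± 0.537 CPM, SE 0.262, adjusted p = 7.35e-05, edgeR). The antisense gene *Gm13415* overlaps it with 31 to 87 counts and moved the other way (−0.56). *Pax3* (chr1:78077904-78173771), which acts in muscle precursors and the neural crest, had 23, 21 and 22 counts in WT and 0, 6 and 4 counts in the libraries labelled cKO. It was low everywhere and lower in the latter, with a fitted log2 fold change of −2.62 (SE 0.721, adjusted p = 0.00756, edgeR). The summed rate was 6.29 times higher in WT, with an exact 95% interval for counting error of 3.22 to 13.7. The Schwann cell gene *Sox10*, also of the neural crest, had 6 to 11 counts in WT and 0 in the libraries labelled cKO, and the 7 skeletal muscle markers summed to 6.62 to 7.44 CPM in WT and 1.85 to 2.54 CPM in the other genotype. That sum was mostly *Acta1* (6.35 ± 0.653 and 2.00 ± 0.418 CPM), with *Myog* and *Myf5* at 0 throughout. Their part in the *Pax3* value was not tested.

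*En1* (chr1:120530147-120535721), a homeobox gene of the ventral limb ectoderm, the midbrain and dermal fibroblasts, had 131, 105 and 83 counts in WT and 209, 219 and 259 counts in the libraries labelled cKO. Its groups were apart, with a log2 fold change of 1.17 (2.39 ± 0.452 to 5.39 ± 0.380 CPM, SE 0.188, adjusted p = 6.58e-05, edgeR). *En2* had at most 2 counts and was not tested. The MEIS site in the *En1* promoter printed above was not set against any binding data here.

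The LIM homeobox genes were of low level. *Lhx6* (chr2:35971965-35995420), known from the first branchial arch and forebrain interneurons, had 19, 46 and 18 counts in WT and 2, 0 and 2 counts in the libraries labelled cKO. This was the largest fitted decrease among the members and rested on few counts, with a log2 fold change of −4.16 (SE 0.774, adjusted p = 0.0003, edgeR). The summed rate was 19.8 times higher in WT, with an exact 95% interval of 7.44 to 74.3. In these files even values prevail among small counts, which is what counting the 2 mates of a pair separately would give, so that such intervals, which cover counting error only, are too narrow. With the counts halved, neither *Lhx6* nor *Pax3* had enough to be tested. *Lhx9*, a gene of the limb bud and the gonad, fell from 10.0 ± 1.52 to 6.07 ± 0.475 CPM, a log2 fold change of −0.72 (adjusted p = 0.000372, edgeR). *Lhx2*, which acts in the limb bud with *Lhx9*, and *Lhx8* overlapped between the genotypes and did not pass (0.66 and 1.29, adjusted p = 0.409 and 0.241, edgeR).

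**Figure D4:**
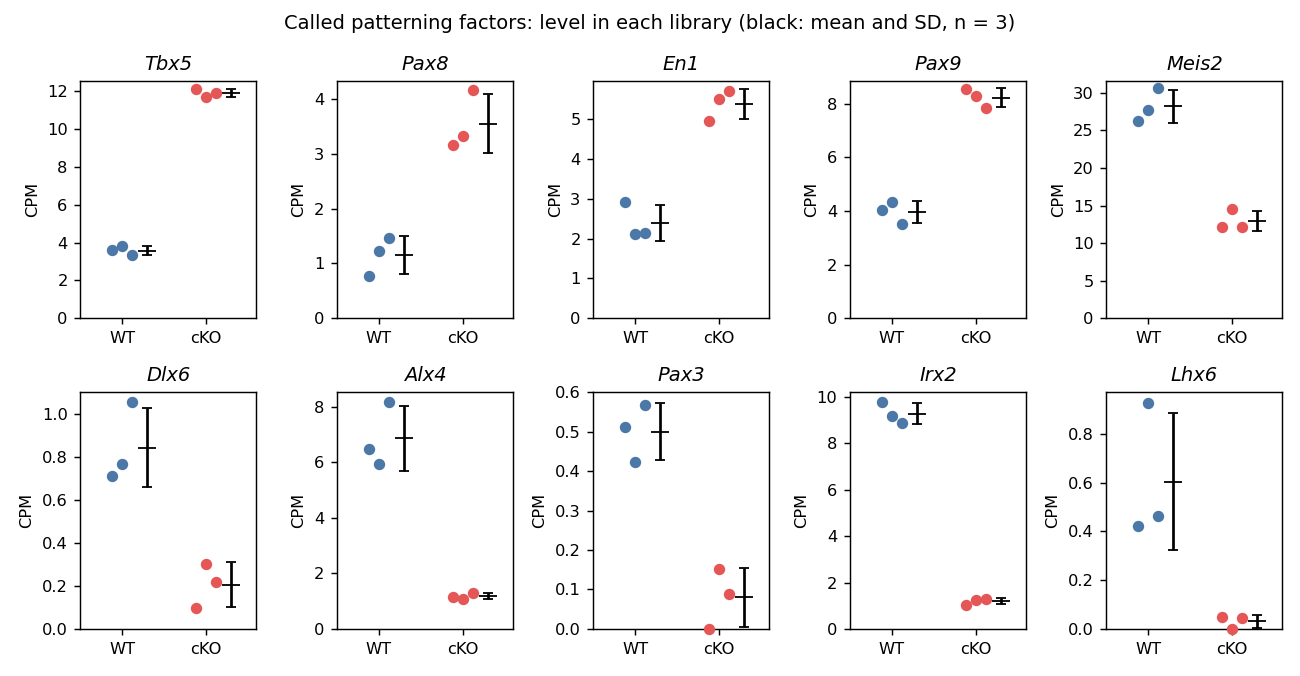
Level in CPM of the 10 called members in each library, WT in blue and the libraries labelled cKO in red, with the mean and SD (n = 3) in black and each axis starting at 0. *Tbx5*, *Pax8*, *En1* and *Pax9* are higher and the other 6 lower in the libraries labelled cKO, and in no panel do the groups overlap.

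Members of a family often lie side by side in the genome. Of 16 pairs within 1 Mb, 8 had both genes tested. Their fold changes had the same sign in 5 pairs and opposite signs in 3, among them *Tbx3* with *Tbx5* and *Tbx2* with *Tbx4*. Both genes passed in 2 pairs, and of these *Irx1* and *Irx2* fell together while *Tbx3* and *Tbx5* moved apart. With the mesenchymal scaling neither *Irx1* (adjusted p = 0.0858, edgeR) nor *Tbx3* (adjusted p = 0.446, edgeR) passed. *Six4*, *Dlx1* and *Dlx5*, which are in these pairs and had not passed, changed sign with that scaling.

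Other genes that act with the members were taken from a list of 64 genes found in the table. Of these 48 were tested, and 4 (8.33%) were called higher and 4 (8.33%) lower, beside 6.56% and 4.64% of all tested genes. Without a fold limit 12 (25.0%) passed as higher and 19 (39.6%) as lower, beside 20.1% and 19.2%. Their median lay at −0.19 on the log2 scale. Without WT replicate 1 the genes called higher numbered 2, and without cKO replicate 3 those called lower numbered 7. With the mesenchymal scaling 18 passed as higher and 10 as lower. The signals of the limb bud and their effectors were mostly lower. Of 18 such genes 13 were tested, 9 passed as lower (69.2%, beside 19.2% of all tested genes) and 0 as higher (beside 20.1%). With the mesenchymal scaling 6 passed as lower and 1, *Gli3*, as higher. *Fgf10*, the mesenchymal signal that starts and maintains limb outgrowth, had 422, 524 and 404 counts in WT and 139, 132 and 151 counts in the libraries labelled cKO (log2 fold change −1.61, adjusted p = 2.38e-08, edgeR). *Grem1*, a secreted BMP antagonist, fell from 486 ± 25.8 to 228 ± 6.82 CPM (−1.09, adjusted p = 1.26e-12, edgeR). *Twist2*, a mesenchymal repressor of osteoblast differentiation, fell from 14.4 ± 0.525 to 5.28 ± 0.287 CPM (−1.45, adjusted p = 7.81e-09, edgeR). The groups of these 3 genes did not overlap. *Fgf8* and *Wnt7a*, which are made in the limb ectoderm, were at 0 in every library, and *Shh* had at most 4 counts.

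The co-factors moved in both directions. *Lmo2*, a LIM-only co-factor best known from blood cells, rose from 1.75 ± 0.348 to 17.6 ± 1.98 CPM, a log2 fold change of 3.32 (adjusted p = 6.33e-12, edgeR), and the macrophage markers given above moved with it, a part that was not tested. *Lmo4* passed as higher (0.55) and *Ldb1*, the bridging partner of LIM proteins, as lower (−0.17). Of the 6 Groucho co-repressors *Tle4* was called higher (5.89 ± 1.02 to 13.3 ± 1.03 CPM, 1.18, adjusted p = 1.06e-06, edgeR), *Tle2* (0.51) and *Tle5* (0.23) passed as higher and *Tle1* (−0.84) as lower. Of the factors that drive chondrocyte differentiation, *Sox9* (0.24) and *Sox6* (0.59) passed as higher and *Sox5* (−0.21) as lower. The osteoblast factors *Runx2* (−0.21) and *Sp7* (−0.59) and the tendon factor *Scx* (−0.26) also passed as lower. With the mesenchymal scaling *Sox5*, *Runx2*, *Sp7*, *Scx* and *Ldb1* did not pass, whereas *Sox9* and *Sox6* did. Of the other osteoblast markers, *Col1a1* (−0.67) passed as lower and *Ibsp* (2.01) and *Alpl* (0.68) as higher, and *Bglap* was not tested.

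**Figure D5:**
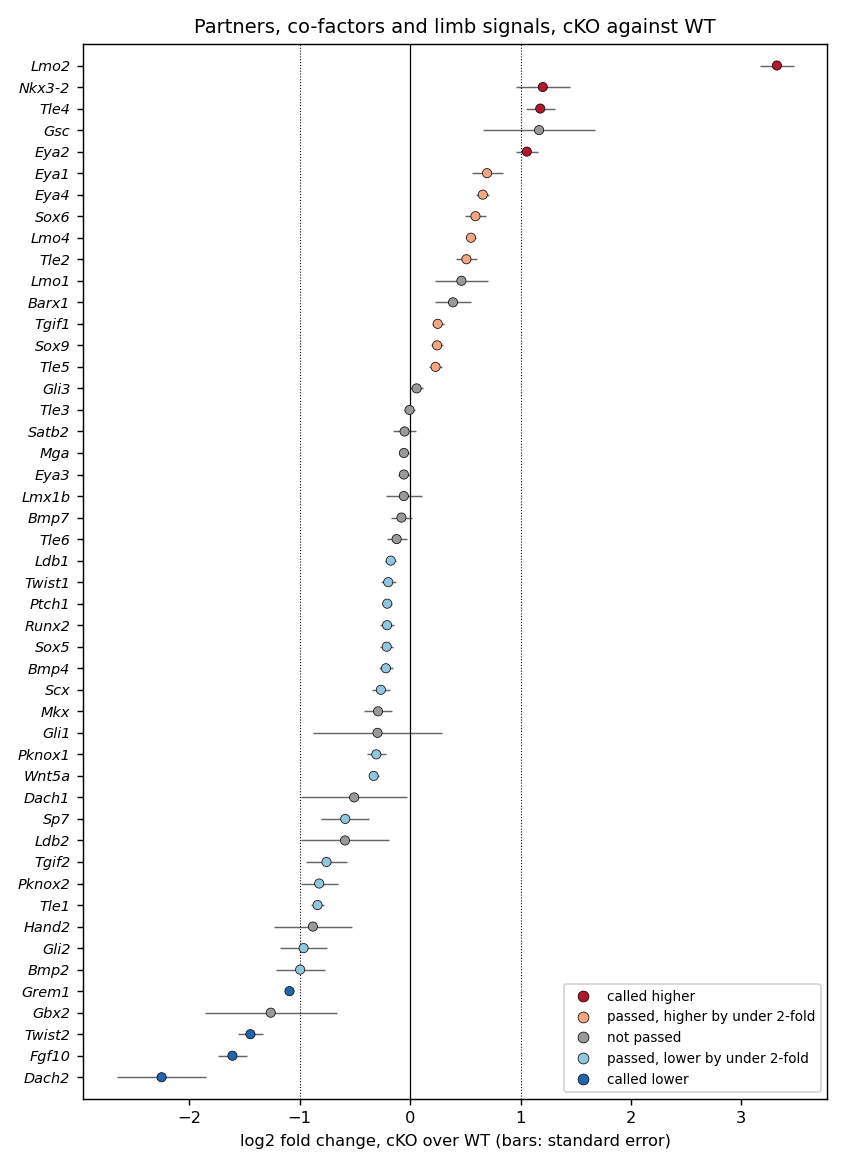
Log2 fold change, cKO over WT, of the 48 tested partners, co-factors and limb signals, 1 line per gene, with bars for the standard error and dotted lines at −1 and 1. *Lmo2* stands highest at 3.32 and *Dach2* lowest at −2.25.

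The 26 members that were not tested are genes mainly of other regions and organs. At 0 in every library were 14, among them *Emx1*, *Irx4*, *Irx6*, *Lhx1*, *Lhx3*, *Msx3*, *Pax4*, *Pax7*, *Six3*, *Six6*, *Tbx19*, *Tbx20* and *Tbx22*. A further 5 had a highest count of 1 to 3, and 7 exceeded 3 counts. The highest of these was *Pax5*, the regulator of B cell identity, with 13, 29 and 8 counts in WT and 2, 6 and 2 counts in the libraries labelled cKO. The 4 B cell markers summed to at most 0.0950 CPM in any library. *Tbx10* reached 7 counts, *Alx1* 6, and *Pax2*, *Pitx3*, *Tbx1* and *Tbx21* reached 4 each.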

How the data were processed

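RNA sequencing of 6 stimulated cultures was analysed, 3 WT and 3 labelled cKO. The authors aligned 150 bp paired-end reads to GRCm39, with HISAT2 2.0.5 per the processing notes of the labels, and counted them with featureCounts, named there as 1.55.0-p3. The authors deposited raw counts per gene with gene lengths, coordinates and biotypes, and the methods also name RSEM. The kit was directional, and the strand setting is not given in the sources used here. The depth was 39566835 to 49734046 counts per library, and even values made up 63.4% to 65.7% of counts from 1 to 10.

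Fold changes and their tests came from edgeR 4.0.16 run on the deposited counts under R 4.3.3 (filterByExpr, TMM, glmQLFit without robust estimation, glmQLFTest, genotype as the only term), adjusted by Benjamini-Hochberg over 17146 genes. The procedure was tested on simulated data. CPM per kb uses the deposited gene length. Values in every library are given for called members and for a fixed list of limb and mesenchymal members, and by fold and adjusted p for other tested members. The members, the lists and the alternatives were chosen with earlier results of these data known. The alternatives were DESeq2 1.42.0, limma-voom (limma 3.58.1), other scalings, filters and limits, halved counts, a replicate block and each library left out. Some members are counted but not reported by name here.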

Additional observations from a re-analysis of the deposited data

How the results depend on the processing

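Scaled on library size only, the median log2 fold change of the tested members was −0.12, scaled on mesenchymal genes 0.051, and with every gene of at least 1 count −0.21. Leaving out each library in turn gave −0.20 (without WT replicate 1) to −0.075 (without WT replicate 2), with 4 to 5 members called higher, 6 to 7 called lower, 1808 to 1953 genes called in all, and 2 to 5 partner genes called higher and 4 to 7 lower. With the mesenchymal scaling 7 members were called higher, *Irx3*, *Pax1* and *Six2* being added, and 5 members, none of which had passed, changed sign. With a limit of 1.5-fold, 7 members were called higher and 11 lower, 7 partner genes higher and 10 lower, and 3003 genes in all. With at least 10 counts in every library 3 members were called lower, because *Lhx6*, *Pax3* and *Dlx6* were no longer tested. *Dlx5*, which did not pass, turned to 0.058 under the mesenchymal scaling and 0.019 without WT replicate 2, and lay between −0.28 and 0.019 when single libraries were left out. *Pax9* was at 0.97 without WT replicate 3, under the fold limit. DESeq2 and limma-voom called the same 10 members. With counts halved and rounded up 4 were called higher and 4 lower, since *Lhx6* and *Pax3* were then not tested. With the replicate number as a block 4 members were called higher and 6 lower, the same 10 genes, and 1859 genes in all. The replicate numbers did not pair the libraries, with correlations of −0.014 to 0.0012 between libraries of the same number and 1 of 3 correlating best with its own number, and the block moved no count by over 1.5 times, although *Msx1* no longer passed. Depth limits the members under 1 CPM, and counts of reads that carry no molecular identifier are not counts of molecules.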
